A study of Homo sapiens with 24 samples.

Results

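The transcripts described here are the small nucleolar RNAs, the small Cajal body RNAs and the SNHG transcripts that hold some of them, in osteosarcoma cells given the kinase inhibitor THZ2. They were taken as every probe set whose only gene symbol begins with SNORA, SNORD, SCARNA or SNHG, or is GAS5, which gave 58 of 18132 genes and 79 of 44994 probe sets. Of these, 48 genes with 64 probe sets name small RNAs (37 SNORA, 7 SNORD and 4 SCARNA genes), and 10 genes with 15 probe sets name SNHG transcripts. GAS5 had 0 probe sets that name it alone, and 48 more probe sets that name a small RNA or SNHG gene together with another gene were left out. The group was chosen by the rises of some of its members after THZ2 in these same arrays, so each difference between a THZ2 dose and DMSO below is a description and carries no p-value.

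RNA of the human osteosarcoma cell lines SJSA-1 and U2-OS was measured on 24 Affymetrix PrimeView arrays, with 3 arrays in each of 8 groups. Each line received THZ2, a covalent inhibitor of the transcription kinase CDK7, at 25, 100 or 400 nM, or the solvent DMSO, for 6 h. The labels do not say whether the 3 arrays of a group were separate cultures, so the errors may be technical. The labels name no genetic change in any group.

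Box H/ACA RNAs (the SNORA genes) guide the change of uridine to pseudouridine in ribosomal RNA, and box C/D RNAs (the SNORD genes) guide ribose methylation. Small Cajal body RNAs (SCARNA) do the same work on the RNAs of the spliceosome. In human cells most of these small RNAs are not transcribed by themselves: they are cut out of introns of a host transcript after splicing, and they end without a poly(A) tail. Hosts are protein-coding genes, many of them for ribosomal proteins, or SNHG genes, whose spliced RNA codes for no known protein in most cases and is often short-lived.

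All 48 small RNA genes lay inside at least 1 other gene of the RefSeq annotation by position, without regard to strand. Genes whose symbol begins with LOC were not counted as holders, and among the rest 46 small RNA genes had a single holder. Protein-coding genes were the only holders of 39, lncRNA genes were among the holders of 9, and 5 lay inside an SNHG gene of the group: SNORA60 in SNHG11, SNORA71A, SNORA71C and SNORA71D in SNHG17, and SNORA78 in SNHG9. The annotated small RNAs were 103 to 348 bases long. The promoters of 4 SNHG genes and of 2 protein-coding hosts are shown because these transcripts differed in direction after THZ2. SNHG7 and SNHG12 fell, SNHG17 rose, and SNHG29 was called in neither direction at 25 and 100 nM. RPL12 holds SNORA65, the small RNA with the largest rise, and KANSL2 fell while the SNORA2A it holds rose. Each line runs 5′ to 3′ over the 60 bases before and the 20 bases from the annotated start, from RefSeq on GRCh38.p14. Capitals mark TATAA or TATATA in the 40 to 21 bases before the start, and a run of C and T at the start where a C is followed by at least 4 more C or T.
SNHG7: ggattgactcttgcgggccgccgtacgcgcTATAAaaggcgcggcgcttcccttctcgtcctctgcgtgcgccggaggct
SNHG12: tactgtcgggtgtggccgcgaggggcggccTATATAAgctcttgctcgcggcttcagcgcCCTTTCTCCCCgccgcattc
SNHG17: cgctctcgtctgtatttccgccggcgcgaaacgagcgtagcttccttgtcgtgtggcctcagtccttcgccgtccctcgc
SNHG29: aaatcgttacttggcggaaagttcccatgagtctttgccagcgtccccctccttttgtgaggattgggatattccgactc
RPL12: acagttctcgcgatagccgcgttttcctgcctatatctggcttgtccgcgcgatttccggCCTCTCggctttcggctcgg
KANSL2: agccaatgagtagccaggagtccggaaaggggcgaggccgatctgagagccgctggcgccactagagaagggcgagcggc
The windows are SNHG7 at chr9:136728165-136728244 (minus strand), SNHG12 at chr1:28581854-28581933 (minus strand), SNHG17 at chr20:38435309-38435388 (minus strand), SNHG29 at chr17:16438927-16439006 (plus strand), RPL12 at chr9:127451387-127451466 (minus strand) and KANSL2 at chr12:48682219-48682298 (minus strand). SNHG7 and SNHG12, the SNHG genes that fell furthest, both held the TATA letters, as did SNHG8 and the lncRNA host ZFAS1. Of these ZFAS1 was not called at 100 nM in either line. SNHG1 and SNHG32, which also fell in some comparisons, did not hold these letters. Among all 35116 RefSeq windows 4.18% held them, read on the strand of the gene. The pyrimidine run stood at the starts of SNHG12, SNHG32, RPL12, RPL27A, RPS12, ZFAS1 and 1 of the listed starts of MATR3, against 4.07% of all windows. SNHG1, SNHG11, SNHG17, SNHG29, KANSL2, IARS1, SRCAP, the lncRNA host DANCR and the other listed start of MATR3 held neither. The genes named here were picked with their values known, so no link between these letters and a direction is read. These are matches of letters, and nothing about a factor was tested.

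The values are deposited intensities on a linear scale. A log2 difference is the mean of log2(intensity + 16) in the THZ2 arrays minus that in the DMSO arrays of the same line, with its SE from a limma fit over all probe sets, n = 3 arrays per group. Because 16 was added, the log2 difference of a dim probe set is smaller than the ratio of its intensities. Such a probe set can hardly fall, which limits any count of small RNAs that fell beside the brighter SNHG probe sets. "Rose" and "fell" are used of probe sets past a Benjamini-Hochberg adjusted p of 0.05 over all 44994 probe sets. Group means of the small RNA probe sets with DMSO had a median of 13.8 in SJSA-1 and 25.8 in U2-OS, and those of the SNHG probe sets 427 and 439. Across the arrays 19 of 64 small RNA probe sets and 2 of 15 SNHG probe sets averaged below 12.73, which is percentile 30 of every value in the file. A probe set that ends in _x_at or _s_at can also bind related sequences, and 23 of the 64 small RNA and 6 of the 15 SNHG probe sets are of these kinds. The arrays read labelled RNA made by a protocol for polyadenylated transcripts in its standard form, and whether a small RNA probe set reads the mature RNA, an unprocessed intron or a longer transcript was not tested.

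Shared values split the arrays into 3 sets that look separately normalized: all SJSA-1 arrays, the U2-OS arrays up to 100 nM, and the U2-OS arrays at 400 nM. Within a set 0.853% to 5.47% of probe sets held the same value in pairs of arrays, and across sets at most 0.00405% did. A difference at 400 nM in U2-OS, or between the lines, therefore cannot be told apart from a difference in normalization. Median intensities were 23.4 to 25.5 in SJSA-1, 33.5 to 34.5 in U2-OS up to 100 nM and 36.6 to 37.3 in U2-OS at 400 nM. The 8 osteoblast lineage markers summed to 3860 to 5572 per group, the blood and epithelial markers to at most 258, and the nervous markers to 118 to 872. The upper end of the nervous sum came from NEFL in U2-OS, with group means of 418 to 621, against at most 2.99 in SJSA-1. MDM2 and CDK4, both amplified in SJSA-1, averaged 835 and 7547 with DMSO in SJSA-1, against 87.1 and 1231 in U2-OS. The extraction text in the labels names brain tissue, whereas the treatment text names these cultured cells.

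At 100 and 400 nM THZ2 far more small RNA probe sets rose than fell in both lines, while the SNHG probe sets divided. At 100 nM in SJSA-1, 39 of 64 small RNA probe sets rose and 0 fell, where 21.8% of all probe sets rose and 19.3% fell. In the same comparison 3 of 15 SNHG probe sets rose and 7 fell. The median log2 difference was 0.29 over the small RNA probe sets, -0.14 over the SNHG probe sets and 0.04 over all probe sets. The SNHG median was -0.058 without DMSO replicate 3 and -0.037 after joint quantile normalization. These counts rest on values that were used to propose the group, so nothing is read from them beyond their size.

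At 100 nM in U2-OS, 22 small RNA probe sets rose and 1 fell, with 15.4% of all probe sets higher and 16.1% lower. Among SNHG probe sets 2 rose and 6 fell. The medians were 0.11 for the small RNAs, 0.01 for the SNHG probe sets and 0.04 for all probe sets. At 25 nM the response was small in both lines: 7 small RNA probe sets rose and 4 SNHG probe sets fell in SJSA-1, against 1.42% higher and 4.12% lower among all. The 7 became 11 without DMSO replicate 3, and the 4 became 2 without DMSO replicate 2 or without 25 nM replicate 2, 6 without DMSO replicate 3, and 0 with only the 12 SJSA-1 arrays in the fit. In U2-OS at 25 nM 0 of the 79 probe sets were called by limma, with 0.0200% higher and 0.0356% lower among all.

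At 400 nM in SJSA-1, 37 small RNA probe sets rose and 1 fell, and 5 SNHG probe sets rose and 4 fell, with 33.2% of all probe sets higher and 20.2% lower. The medians were 0.18, 0.03 and 0.06 for small RNA, SNHG and all probe sets. At 400 nM in U2-OS, 39 small RNA probe sets rose and 6 fell, and 3 SNHG probe sets rose and 9 fell, where 46.0% of all were higher and 23.0% lower. The small RNA median there was 0.29, the SNHG median -0.35 and the median of all probe sets 0.11. The plot of log2 differences shows the long upper tail of the small RNAs in every comparison except U2-OS at 25 nM, and SNHG probe sets on either side of 0.

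**Figure D1:**
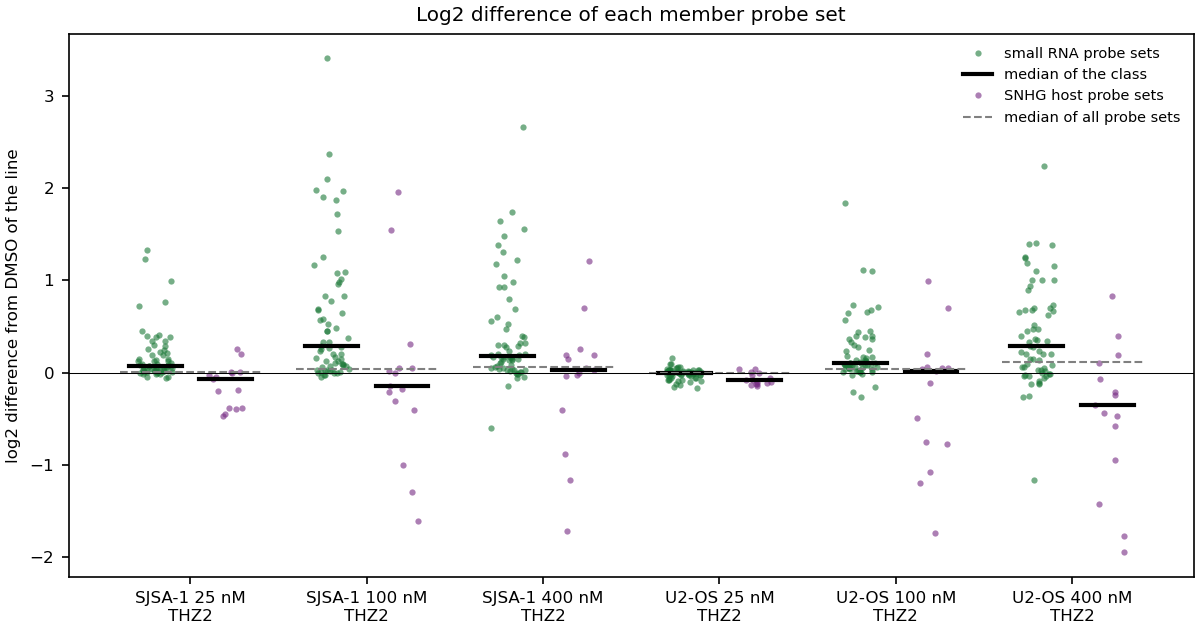
Log2 difference from the DMSO arrays of the line (vertical axis) for each of the 64 small RNA probe sets (green) and 15 SNHG host probe sets (purple) in the 6 THZ2 comparisons; black bars are class medians and dashed lines the median of all 44994 probe sets. At 100 nM in SJSA-1 the small RNA median is 0.29, and 39 of the 64 probe sets rose.

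These directions depend on how the arrays are scaled. The 24 poly-A spike-in probe sets were brighter on average at 100 and 400 nM than with DMSO in both lines, and with each array centred on them the median of all probe sets moved to -0.40 at 100 nM in SJSA-1 and to -0.32 at 100 nM in U2-OS. On that scale 11 small RNA probe sets rose at 100 nM in SJSA-1, where 0.287% of all probe sets rose and 17.1% fell. In U2-OS 1 rose, where 0.187% of all rose and 10.7% fell. Centring moves every probe set of an array alike, so the distance between the small RNA median and the median of all probe sets, 0.24 in SJSA-1 and 0.06 in U2-OS at 100 nM, cannot change with it. The spike-in mean of the SJSA-1 arrays with 400 nM spread over 7.38 to 8.90 on the log2 scale, so that scale was unsteady there. Their DMSO arrays, the baseline of each SJSA-1 dose and of the line comparisons, spread over 6.74 to 7.39. In U2-OS the DMSO arrays lay at 5.99 to 6.00. Spike-in results in SJSA-1 at 25 and 100 nM and between the lines thus carry this spread too.

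Among box H/ACA RNAs, SNORA65 had the largest difference. In SJSA-1 its intensities were 16.4, 27.1 and 29.9 with DMSO, 43.1, 51.3 and 55.7 at 25 nM, 416, 410 and 396 at 100 nM, and 234, 329 and 170 at 400 nM. In U2-OS they were 16.5, 13.5 and 12.1 with DMSO, 15.0, 14.6 and 15.9 at 25 nM, 81.4, 114 and 81.9 at 100 nM, and 111, 135 and 132 at 400 nM. All arrays at 100 and 400 nM lay above all DMSO arrays of their line, and in SJSA-1 the 25 nM arrays did so too. The log2 difference was 3.40 ± 0.15 in SJSA-1 and 1.84 ± 0.15 in U2-OS at 100 nM.

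SNORA84, held by the gene of a tRNA synthetase, had 182, 189 and 147 at 100 nM against 16.9, 23.8 and 20.8 with DMSO in SJSA-1. In U2-OS it had 57.4, 78.0 and 79.1 at 100 nM against 38.1, 44.0 and 33.0 with DMSO. The groups did not overlap in either line, and the log2 difference was 2.37 ± 0.11 in SJSA-1 and 0.68 ± 0.11 in U2-OS. SNORA74A, whose 2 probe sets gave 1.97 and 1.98 at 100 nM in SJSA-1, had 91.8, 93.1 and 83.3 at that dose against 8.5, 11.7 and 11.96 with DMSO, and these groups were apart as well.

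SNORA3B and SNORA26 were the small RNAs with the largest rises at the lowest dose. SNORA3B, held by the ribosomal protein gene RPL27A, had 144, 161 and 147 at 25 nM against 54.9, 58.1 and 51.6 with DMSO in SJSA-1. In U2-OS the same dose gave 94.3, 82.9 and 94.9 against 84.4, 92.4 and 81.7 with DMSO, which overlap. The log2 difference at 25 nM was 1.23 ± 0.087 in SJSA-1 and 0.06 ± 0.087 in U2-OS. SNORA26 had 118, 153 and 146 at 25 nM in SJSA-1, against 43.1, 74.0 and 71.0 with DMSO, a difference of 0.995 ± 0.14. Its difference in U2-OS at 25 nM was -0.03 ± 0.14 and was not called.

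SNORA30 and SNORA2A kept climbing between 100 and 400 nM. SNORA30 in SJSA-1 had 20.7, 22.9 and 25.3 with DMSO, 23.8, 30.9 and 36.3 at 25 nM, 68.6, 58.5 and 56.1 at 100 nM, and 108, 120 and 73.0 at 400 nM. SNORA2A in U2-OS had 12.9, 12.2 and 12.1 with DMSO, 13.3, 11.5 and 11.2 at 25 nM, 23.9, 22.5 and 33.2 at 100 nM, and 52.2, 53.8 and 73.2 at 400 nM. Neither 400 nM group overlapped its DMSO group. At 400 nM the log2 difference of SNORA30 was 1.56 ± 0.13 in SJSA-1 and 1.18 ± 0.13 in U2-OS, and that of SNORA2A was 0.93 ± 0.11 in SJSA-1 and 1.40 ± 0.11 in U2-OS. SNORA33 ran the other way at the top dose: it had 102, 131 and 88.0 at 400 nM against 153, 170 and 181 with DMSO in SJSA-1, after 274, 269 and 302 at 100 nM. It was chosen for mention after its values were seen, as the small RNA with the largest fall, with log2 differences of -0.60 ± 0.10 in SJSA-1 and -1.16 ± 0.10 in U2-OS at 400 nM.

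**Figure D2:**
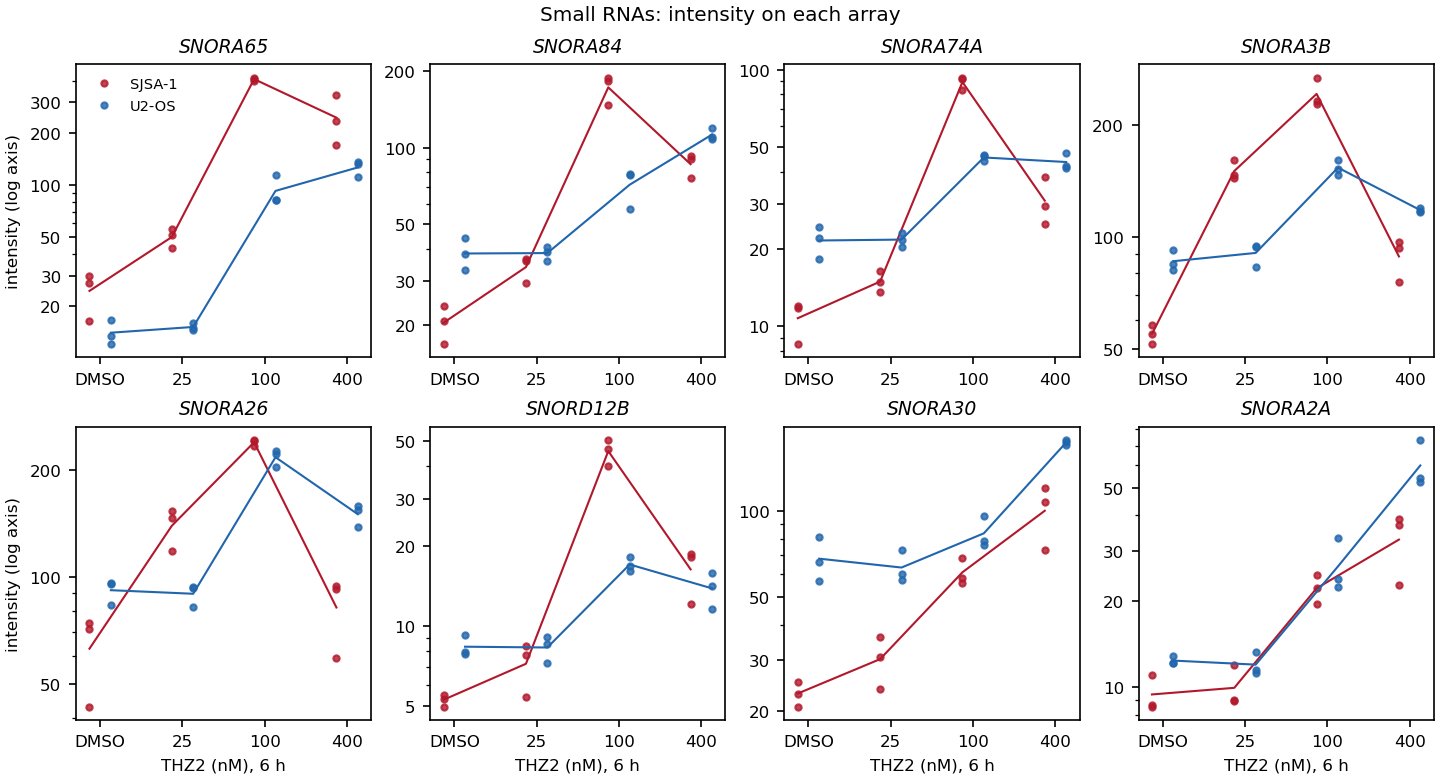
Intensity of 8 small RNAs on each array (log axis) against THZ2 dose, SJSA-1 in red and U2-OS in blue, 3 arrays a point group, with lines through the group means. In SJSA-1, 6 of the 8 are highest at 100 nM, whereas SNORA30 and SNORA2A are highest at 400 nM.

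Over all SNORA genes, 29 of 46 probe sets rose at 100 nM in SJSA-1 and 17 in U2-OS, where 21.8% and 15.4% of all probe sets rose. Of the 9 SNORD probe sets 3 rose in each line at 100 nM, beside the same shares of all probe sets. The box C/D RNA with the largest difference was SNORD12B, at 50.2, 46.5 and 40.2 at 100 nM against 5.5, 5.3 and 5.0 with DMSO in SJSA-1. In U2-OS it had 16.05, 16.9 and 18.2 at 100 nM against 7.9, 9.3 and 7.8 with DMSO. The groups were apart in both lines, with log2 differences of 1.53 ± 0.069 in SJSA-1 and 0.44 ± 0.069 in U2-OS, although its DMSO values lie in the dimmest part of the scale.

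Of the 9 SCARNA probe sets 7 rose at 100 nM and 7 at 400 nM in SJSA-1, where 21.8% and 33.2% of all probe sets rose. In U2-OS 2 rose at 100 nM and 9 at 400 nM, where 15.4% and 46.0% of all rose. Dose and normalization are not separable at 400 nM in U2-OS. SCARNA14 was read by 2 probe sets that agreed in direction and differed in level. The brighter had 238, 252 and 271 at 400 nM against 90.6, 85.7 and 84.8 with DMSO in U2-OS, and 37.3, 57.7 and 31.6 against 9.2, 9.4 and 9.2 in SJSA-1. The other gave the larger difference at 100 nM in SJSA-1, 1.91 against 0.78. Of the 15 small RNA genes with several probe sets 0 had opposite calls in any of the 6 comparisons, and the gap between probe sets reached 1.13 log2 units.

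Most small RNA genes that rose in U2-OS at 100 nM also rose in SJSA-1. With each gene represented by its brightest probe set, 29 small RNA genes rose in SJSA-1 and 18 in U2-OS, and 17 rose in both, which is 58.6% of the SJSA-1 genes and 94.4% of the U2-OS genes. Over all genes 3779 rose in SJSA-1 and 2970 in U2-OS at that dose, and the 1417 that rose in both are 37.5% of the SJSA-1 genes and 47.7% of the U2-OS genes. At 400 nM 27 small RNA genes rose in SJSA-1, 29 in U2-OS and 20 in both, which is 74.1% and 69.0% of them, against 67.2% and 54.9% over all genes. The size of the difference was set between the lines directly, as the SJSA-1 difference minus the U2-OS difference. At 25 nM 3 small RNA probe sets had a higher value in SJSA-1 and 0 a lower one, where 0.171% of all were higher and 0.451% lower. At 100 nM 24 small RNA and 4 SNHG probe sets were higher in SJSA-1 and 0 of either class lower, where 5.73% of all were higher and 7.17% lower. With arrays centred on the poly-A spike-ins the 24 became 1, the 4 became 0, and the 3 at 25 nM became 0. Under the other alternatives these counts stayed at 18, 3 and 2 or more. The shares over all probe sets under these alternatives are not given here. The largest gap was that of SNORA84, at 1.69 ± 0.15.

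Between 25 and 100 nM 33 small RNA probe sets rose and 0 fell in SJSA-1, where 17.6% of all rose and 17.3% fell. In U2-OS 25 rose and 0 fell, where 18.6% of all rose and 16.8% fell. In the step between 100 and 400 nM small RNAs went in both directions in SJSA-1, where all arrays share 1 normalization set. Of the 29 small RNA genes that rose at 100 nM, 14 were lower at 400 nM than at 100 nM, 3 were higher and 12 passed in neither direction. The 29 were picked by high values on the 100 nM arrays, which are also the baseline of this step, so falls are favoured. No share over all genes that rose at 100 nM is given here, so nothing is read from this split. Over probe sets 17 fell and 6 rose in this step, where 10.5% of all fell and 9.32% rose. The 6 became 2 without 100 nM replicate 1 or 400 nM replicate 2, and 10 without 400 nM replicate 3. SNORA26 fell by 1.40 ± 0.14, SNORA3B by 1.31 ± 0.087 and SNORA74A by 1.18 ± 0.085. The 3 that rose were SNORA30 (0.57 ± 0.13), SCARNA14 (0.40 ± 0.12) and SNORA2A (0.34 ± 0.11), and the other SCARNA14 probe set differed by -0.16 ± 0.12 in this step. Replicate 1 of the SJSA-1 DMSO arrays was the lowest of its group for SNORA65, SNORA84, SNORA74A, SNORA26 and SNORA30, and replicate 3 of the 400 nM arrays for SNORA65, SNORA26, SNORA30 and SNORA2A. In U2-OS 27 small RNA probe sets rose and 12 fell in this step, against 40.7% and 20.5% of all, with dose and normalization not separable.

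Among the SNHG transcripts SNHG17 and SNHG9 rose. SNHG17 had 120, 146 and 103 at 100 nM against 19.6, 16.1 and 23.4 with DMSO in SJSA-1, and 83.03, 65.5 and 77.2 against 27.4, 34.1 and 28.0 in U2-OS. Both lines had separate groups, with log2 differences of 1.95 ± 0.11 in SJSA-1 and 0.99 ± 0.11 in U2-OS. SNHG9, the shortest SNHG gene here at 509 bases, had 393, 419 and 383 at 100 nM against 130, 124 and 125 with DMSO in SJSA-1. In U2-OS it had 76.3, 90.0 and 88.4 against 45.8, 47.3 and 44.4. Again no THZ2 array at 100 nM lay within the DMSO range, and the log2 difference was 1.54 ± 0.092 in SJSA-1 and 0.70 ± 0.092 in U2-OS.

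SNHG7 and SNHG12 fell in both lines. In SJSA-1 SNHG7 had 843, 989 and 982 with DMSO, 653, 680 and 709 at 25 nM, 302, 326 and 265 at 100 nM, and 267, 340 and 228 at 400 nM. In U2-OS it had 837, 801 and 847 with DMSO, 769, 740 and 781 at 25 nM, 207, 256 and 255 at 100 nM, and 188, 208 and 216 at 400 nM. Every THZ2 array lay below every DMSO array in both lines, although 25 nM in U2-OS was not called. The log2 difference at 100 nM was -1.61 ± 0.11 in SJSA-1 and -1.73 ± 0.11 in U2-OS. A second SNHG7 probe set gave -0.14 in SJSA-1 and 0.06 in U2-OS, so the 2 probe sets of this gene disagreed.

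SNHG12 had 217, 237 and 201 at 100 nM against 553, 588 and 526 with DMSO in SJSA-1, and 322, 323 and 342 against 757, 802 and 763 in U2-OS. Its log2 differences were -1.29 ± 0.096 in SJSA-1 and -1.19 ± 0.096 in U2-OS, and both of its probe sets fell in both lines at 100 nM. At 25 nM in SJSA-1 the differences of SNHG7 (-0.45) and SNHG12 (-0.40) passed the threshold. Each lost its call without DMSO replicate 2 (SNHG7 at -0.41, SNHG12 at -0.36), and SNHG12 also without 25 nM replicate 2 (-0.36).

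The other SNHG genes changed less or differently in the lines. SNHG32, which holds box C/D RNAs in the major histocompatibility region, had 651, 730 and 719 at 100 nM against 1197, 1189 and 1187 with DMSO in U2-OS. In SJSA-1 it had 2778, 2937 and 2702 at 100 nM against 3236, 3421 and 3061. The groups did not overlap in either line, with log2 differences of -0.21 ± 0.060 in SJSA-1 and -0.75 ± 0.060 in U2-OS. SNHG29 differed by 0.05 ± 0.044 in SJSA-1 and 0.04 ± 0.044 in U2-OS at 100 nM. At 400 nM in U2-OS its 3 probe sets gave opposite calls, at -0.47, -0.43 and 0.19, the only gene described here to do so in any of the 6 comparisons. The probe set at 0.19 was dim, with a mean of 5.81 over the arrays. The other 2 averaged 4531 and 4327.

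SNHG1, which holds several box C/D RNAs, had 75.1, 83.6 and 86.2 at 400 nM against 164, 182 and 170 with DMSO in U2-OS. In SJSA-1 the values were 202, 174 and 154 at 400 nM against 205, 160 and 176, which overlap. At 25 nM in SJSA-1 SNHG1 differed by -0.39 ± 0.094 and was called. That call was lost without DMSO replicate 1 (-0.30), without 25 nM replicate 2 (-0.32) or with only the 12 SJSA-1 arrays in the fit. The group mean of SNHG1 in SJSA-1 was 132 at 100 nM against 180 with DMSO. In U2-OS its differences at 25 nM (-0.15) and 100 nM (-0.12) were not called. SNHG8 differed by 0.26 ± 0.10 at 400 nM in SJSA-1, a call that was lost without DMSO replicate 2 (0.17), 400 nM replicate 1 (0.22) or 400 nM replicate 2 (0.12). Its difference at 400 nM was -0.58 ± 0.10 in U2-OS. At 100 nM SNHG8 fell in both lines, with differences of -0.31 in SJSA-1 and -0.50 ± 0.10 in U2-OS. The SJSA-1 call was lost without DMSO replicate 1 (-0.26) or 3 (-0.27), or without 100 nM replicate 1 (-0.30) or 2 (-0.27). At 25 nM SNHG8 differed by -0.47 ± 0.10 in SJSA-1, a call lost with only the 12 SJSA-1 arrays in the fit. In U2-OS the 25 nM difference (-0.14) was not called. SNHG11 and SNHG28 had no difference beyond 0.31 log2 units at any dose, and the single call among them, SNHG11 at 100 nM in SJSA-1 (0.31 ± 0.090), was lost without 100 nM replicate 1 (0.25).

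**Figure D3:**
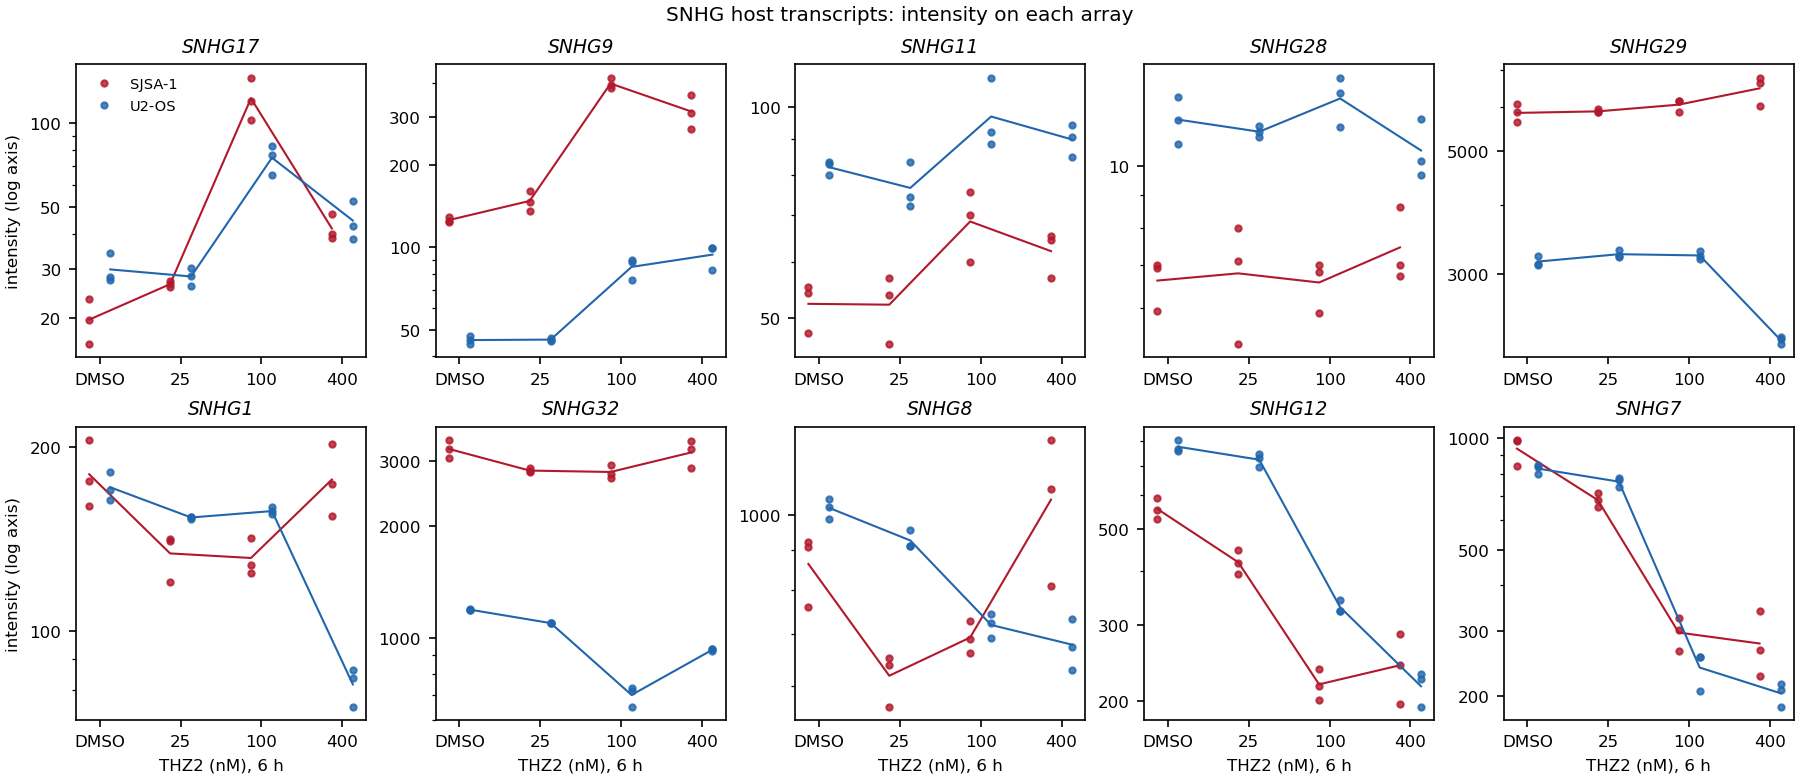
Intensity of the 10 SNHG transcripts on each array (log axis, brightest probe set) against THZ2 dose, SJSA-1 in red and U2-OS in blue, with lines through the group means of 3 arrays. SNHG17 and SNHG9 are higher at 100 nM than with DMSO in both lines, and SNHG12 and SNHG7 are lower.

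The small RNAs were then set against the gene that holds them. This was possible for 43 small RNA genes in a single host with a probe set of its own, 38 hosts in all. At 100 nM in SJSA-1 the small RNA lay above its host in 33 of 43 pairs, with medians of 0.24 for the small RNAs and -0.09 for the hosts and a median difference of 0.43. Of the 24 small RNAs that rose there, the host rose in 5 pairs, fell in 7 and passed in neither direction in 12, where 20.8% of all genes rose and 22.1% fell. At 100 nM in U2-OS 31 of 43 lay above the host, and of the 16 that rose the host rose in 3, fell in 4 and passed in neither direction in 9, with 16.4% of all genes higher and 19.4% lower. The small RNA and host values come from different probe sets, so only their differences from DMSO are compared, not their levels. With 16 added a dim small RNA can hardly fall, and the median small RNA probe set had 13.8 with DMSO in SJSA-1. A pair with a falling host can thus count as above for that reason alone. No share matched on intensity is given here.

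RPL12, which encodes a protein of the large ribosomal subunit and holds SNORA65, was bright and nearly level. It had 9027, 9410 and 8780 at 100 nM against 8249, 8540 and 8481 with DMSO in SJSA-1, and 7102, 7287 and 7324 against 6847, 6903 and 6859 in U2-OS. Its log2 differences were 0.11 ± 0.036 in SJSA-1 and 0.08 ± 0.036 in U2-OS, beside 3.40 and 1.84 for SNORA65. IARS1, the cytoplasmic isoleucyl-tRNA synthetase that holds SNORA84, differed by 0.08 ± 0.081 in SJSA-1 and -0.05 ± 0.081 in U2-OS. ZFAS1, an lncRNA that holds SNORD12B, differed by 0.20 ± 0.084 in SJSA-1 and 0.02 ± 0.084 in U2-OS, neither called. RPL27A, the ribosomal protein gene that holds SNORA3B, differed by -0.10 in SJSA-1, which was not called, and fell by 0.46 in U2-OS.

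KANSL2, the gene of a histone acetyltransferase complex subunit, holds SNORA2A and SNORA2C, and it fell while SNORA2A rose. SNORA2C moved less, with group means of 14.2, 16.9 and 18.8 with DMSO, 100 and 400 nM in SJSA-1. In U2-OS they were 39.6, 42.9 and 35.1, and its difference of 0.08 at 100 nM was not called. The intensities that follow are those of KANSL2. In SJSA-1 KANSL2 had 228, 228 and 231 with DMSO, 229, 267 and 263 at 25 nM, 114, 153 and 105 at 100 nM, and 33.8, 31.1 and 32.4 at 400 nM. In U2-OS it had 339, 363 and 338 with DMSO, 376, 379 and 379 at 25 nM, 334, 325 and 325 at 100 nM, and 91.5, 144 and 149 at 400 nM. The 400 nM groups lay below all others in both lines, and the log2 difference there was -2.34 ± 0.12 in SJSA-1 and -1.36 ± 0.12 in U2-OS. SRCAP, a chromatin remodelling ATPase that holds SNORA30, had 31.8, 41.1 and 30.1 at 100 nM against 70.0, 94.4 and 84.4 with DMSO in SJSA-1, a difference of -0.97 ± 0.10. In U2-OS SRCAP differed by -0.42 ± 0.10 at 100 nM.

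**Figure D4:**
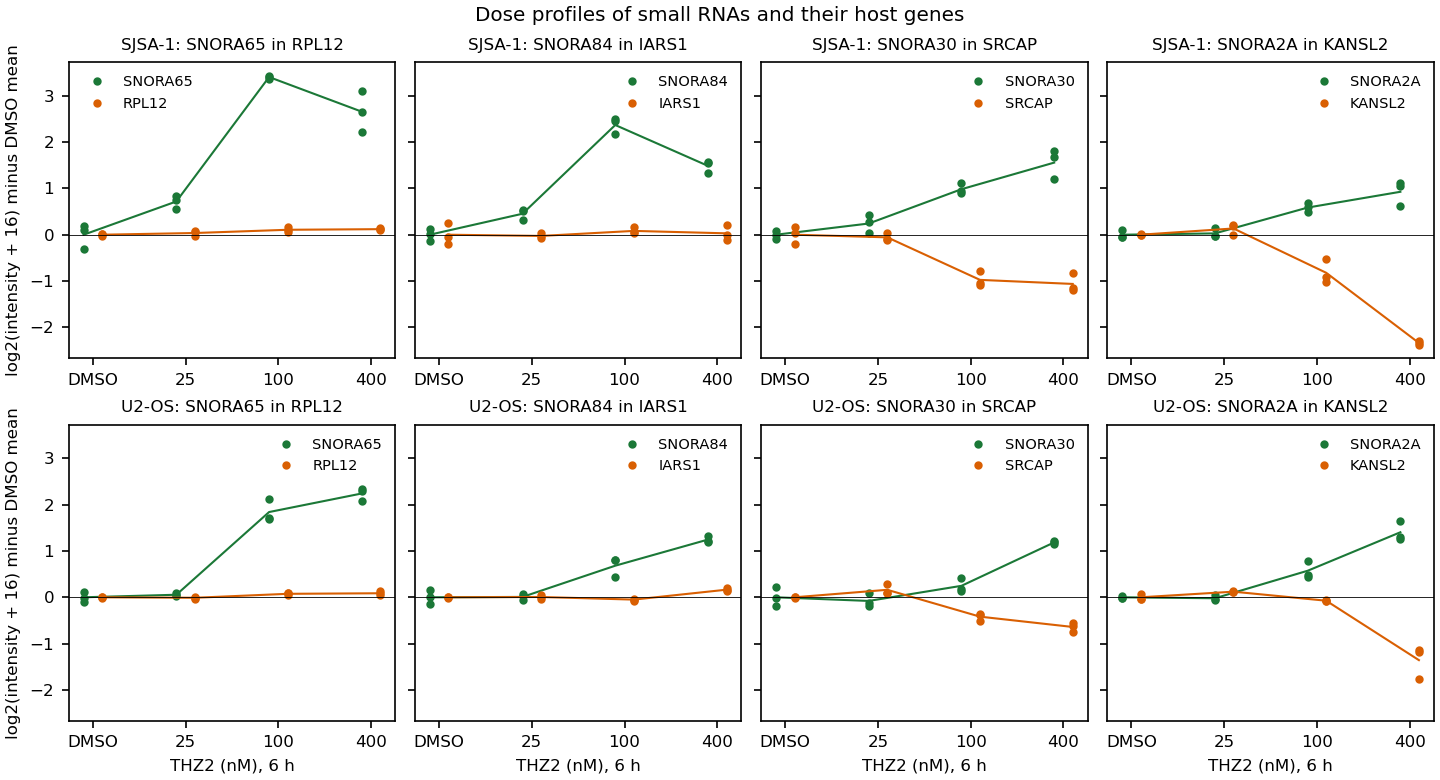
Log2(intensity + 16) minus the mean of the DMSO arrays for 4 small RNAs (green) and the genes that hold them (orange) on each array, SJSA-1 above and U2-OS below, with lines through group means. SNORA65 and SNORA84 rise over hosts that stay near 0, and SNORA30 and SNORA2A rise while SRCAP and KANSL2 fall.

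In the 5 pairs with an SNHG host the small RNA lay below its host at 100 nM in both lines. At 100 nM in SJSA-1 SNHG17 rose by 1.95, and the 3 small RNAs inside it differed by 0.65 (SNORA71D), 0.20 (SNORA71A) and 0.10 (SNORA71C), of which the last was not called and the call of SNORA71A was lost without any 1 of the DMSO arrays or without 100 nM replicate 2 (0.11 to 0.21). SNHG9 rose by 1.54 and SNORA78 by 0.45. SNHG11 differed by 0.31 and SNORA60, dim on every array at 3.7 to 8.1, by 0.07. At 400 nM in U2-OS SNORA78 (1.10 ± 0.082) lay above SNHG9 (0.83 ± 0.092).

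**Figure D5:**
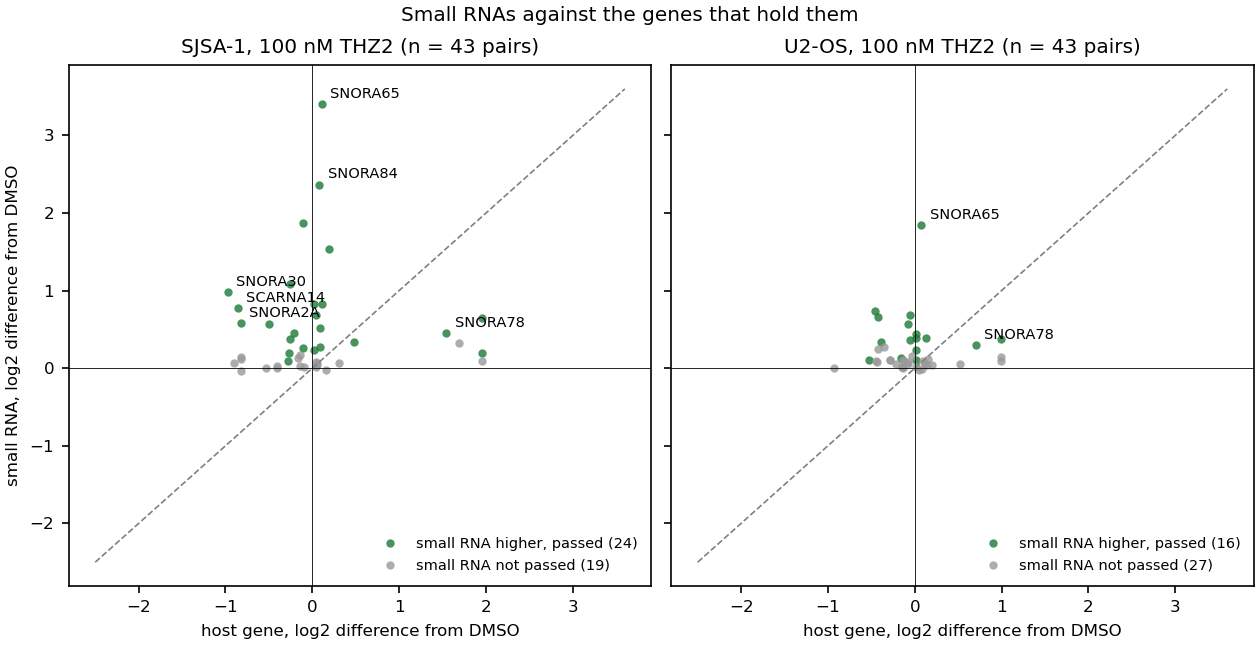
Log2 difference from DMSO of 43 small RNAs (vertical axis) against that of the gene holding each (horizontal axis) at 100 nM, SJSA-1 on the left and U2-OS on the right; green points passed the threshold and the dashed line marks equal differences. In SJSA-1 33 of 43 points lie above the line, and in U2-OS 31.

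The 3 small RNAs that were still higher at 400 than at 100 nM in SJSA-1, SNORA2A, SCARNA14 and SNORA30, all had hosts that were lower at 400 nM than with DMSO, with a median host difference of -1.09. Of the 14 that were lower at 400 than at 100 nM, 11 had a single measured host, of which 2 were lower, 4 higher and 5 called in neither direction, with a median of 0.03. Of those called in neither direction in this step, 10 had a single measured host, of which 2 were lower (MBD2 at -1.23 and KHDC4 at -0.75), 4 higher and 4 neither, with a median of 0.10. Among all genes 38.2% were higher and 21.9% lower at 400 nM in SJSA-1. This split was made after the values were seen, and with 3 small RNAs in 1 of its groups nothing is read from it.

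Genes that build and trim these RNAs were counted from lists chosen with earlier results known, 1 probe set per gene. Of 6 box H/ACA core and assembly genes, 1 rose and 4 fell at 100 nM in SJSA-1, where 20.8% of all genes rose and 22.1% fell. In U2-OS 0 rose and 1 fell, against 16.4% and 19.4%. DKC1, the pseudouridine synthase, differed by -0.34 ± 0.063 in SJSA-1 and -0.13 ± 0.063 in U2-OS, and SHQ1, its assembly chaperone, by -0.94 ± 0.11 and -0.24 ± 0.11 in the same order of lines. Of 5 box C/D proteins 2 rose in SJSA-1, SNU13 (0.28 ± 0.065) and the methyltransferase FBL (0.16 ± 0.056), and 0 were called in U2-OS at 100 nM.

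Of 13 measured assembly and transport genes 1 rose and 3 fell at 100 nM in SJSA-1, and 2 rose and 4 fell in U2-OS. Among all genes 20.8% rose and 22.1% fell at that dose in SJSA-1, and 16.4% rose and 19.4% fell in U2-OS. These shares stand beside the next 2 lists as well. COIL, the scaffold protein of Cajal bodies, fell by 1.80 ± 0.10 in SJSA-1 and by 1.003 ± 0.10 in U2-OS, and PHAX, an export adaptor for small RNAs, rose by 0.78 ± 0.13 and 0.56 ± 0.13. Of 21 genes of lariat debranching and 3′ trimming 2 rose and 12 fell in SJSA-1, and 0 rose and 10 fell in U2-OS. EXOSC3, a subunit of the RNA exosome, fell by 1.99 ± 0.086 in SJSA-1 and by 1.73 ± 0.086 in U2-OS. TOE1, a 3′ exonuclease that matures small nuclear and Cajal body RNAs, fell by 1.87 ± 0.076 and by 1.18 ± 0.076. Of 8 measured genes of nonsense-mediated decay, a pathway that degrades some spliced SNHG transcripts, 0 rose and 5 fell in SJSA-1, and 0 rose and 6 fell in U2-OS. UPF2, a core factor of that pathway, fell by 0.66 ± 0.12 in SJSA-1 and by 1.18 ± 0.12 in U2-OS, and SMG8, which regulates the kinase SMG1, differed by -0.88 ± 0.11 and 0.02 ± 0.11.

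The DMSO arrays of the lines were compared with each other. The same arrays are the baseline of the rises that chose the group, so the p-values of this comparison are not independent of that choice. Of the small RNA probe sets 4 were higher and 52 lower in SJSA-1 than in U2-OS, where 23.0% of all probe sets were higher and 60.4% lower. With arrays centred on their median the counts were 23 and 27, where 47.1% of all were higher and 30.2% lower. The split of all probe sets thus moved with the scaling too, and line and normalization cannot be told apart. SCARNA14 was the small RNA furthest apart on its brighter probe set, at 9.2, 9.4 and 9.2 in SJSA-1 against 90.6, 85.7 and 84.8 in U2-OS (log2 difference -2.03 ± 0.12, limma adjusted p = 3.94e-14). Its other probe set differed by -0.49 ± 0.12. SNORA65 was higher in SJSA-1, by 0.42 ± 0.15 (limma adjusted p = 0.0154), with groups that overlap, but lower by 0.68 on the spike-in scale (limma adjusted p = 0.0152).

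Of the SNHG probe sets 5 were higher and 6 lower in SJSA-1. SNHG32 had 3236, 3421 and 3061 in SJSA-1 against 1197, 1189 and 1187 in U2-OS (1.43 ± 0.060, limma adjusted p = 5.83e-17). SNHG9 had 130, 124 and 125 in SJSA-1 against 45.8, 47.3 and 44.4 in U2-OS (1.20 ± 0.092, limma adjusted p = 9.45e-12), while SNORA78 inside it ran the other way, at 21.6, 24.4 and 24.3 in SJSA-1 against 62.4, 55.7 and 55.3 in U2-OS (-0.91 ± 0.082, limma adjusted p = 2.29e-10). SNHG7 did not pass (0.17 ± 0.11, limma adjusted p = 0.135), and its values overlapped between the lines. Its sign also turned on the spike-in scale (-0.93, limma adjusted p = 0.000942), and it passed with median centring (0.46, limma adjusted p = 0.000451). With arrays centred on the spike-ins 0 SNHG probe sets were higher in SJSA-1, where 1.98% of all were, and the calls of SNHG32 (0.33, limma adjusted p = 0.225) and SNHG9 (0.099, limma adjusted p = 0.735) were lost.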

How the data were processed

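The table deposited by the authors gives an intensity per probe set, on a scale that is not logarithmic, for 24 PrimeView arrays in 8 groups of 3. Per the submitters' processing notes MAS5 and RMA were used, and which of them made these values, and their versions, are not given in the sources used here. Of 49372 deposited probe sets 79 were controls, 1832 named several genes and 2473 others none, and these were left out. No filter on low values was used.

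From these values log2(intensity + 16) was computed, and limma 3.58.1 (R 4.3.3) was run on all 44994 probe sets with a mean for each of the 8 groups, which left 16 residual degrees of freedom, and with eBayes set to follow the trend of variance with intensity. Each of 14 contrasts had its p-values adjusted separately after Benjamini and Hochberg. The fit was tested on simulated data. The smallest two-sided p that an exact permutation of 3 and 3 arrays allows is 0.1, so single-gene permutation was not used. The number of arrays limits the precision.

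The members and gene lists were chosen with earlier results of these data known. Genes named were, in each class, the 8 with the largest difference from DMSO in any of 6 comparisons (brightest probe set, with a group mean of at least 12.73), the small RNAs inside SNHG members, hosts of named small RNAs, SNHG1, and up to 3 genes of each list with the largest difference at 100 nM. SNORA2A and SNORD12B reached that mean only at 100 and 400 nM, so their place among the 8 follows from their rise. SNORA33, SCARNA14 and SNORA2C were added after their values were seen. Hosts were found by position in the RefSeq table of GRCh38.p14, without strand, since small RNA strands were not used here. Genes whose symbol begins with LOC were left out of this search. The main fit did not pair arrays by replicate number. Deviations of same-numbered arrays from their group means correlated at a median r of 0.06 in SJSA-1 and 0.10 in U2-OS. For differently numbered arrays the medians were 0.05 and -0.05. These values do not settle whether the numbers mark a pairing. Alternatives were 3 other scalings, pseudocounts of 1 and 64, a filter, 1 probe set per gene, no intensity trend, the replicate block, only the arrays of a line or only the 6 DMSO arrays, and each array left out.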

Additional observations from a re-analysis of the deposited data

Results flagged for a closer look

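The values here are the log2 difference from DMSO in SJSA-1 minus that in U2-OS, and each passed limma's test of the difference between the lines over all probe sets. They come from the same comparisons that brought these genes forward and carry no p-value. At 400 nM a difference between the lines cannot be told apart from the separate normalization of the U2-OS arrays.

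At 25 nM SNORA3B differed between the lines by 1.17 (1.23 in SJSA-1 and 0.06 in U2-OS) and SNORA26 by 1.02 (0.995 and -0.03). At 100 nM the small RNAs SNORA84 (1.69), SNORA65 (1.56), SNORA74A (1.27), SNORA3B (1.13), SNORD12B (1.09), SNORA30 (0.73) and SNORA26 (0.61) all had the larger rise in SJSA-1. SNHG17 (0.96) and SNHG9 (0.84) did too, and SNHG32 (0.55) had the smaller fall there. With arrays centred on the poly-A spike-ins 1 small RNA and 0 SNHG probe sets were called higher in SJSA-1 at 100 nM. At 25 and 400 nM 0 of either class were called higher on that scale.

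At 400 nM the sign of the difference was mixed among the small RNAs named here. SNORD12B (0.31) had the larger rise in SJSA-1, whereas SNORA2A (-0.48) and SNORA78 (-0.62) had the larger rise in U2-OS. Among SNHG genes the differences were 0.92 for SNHG1, 0.84 for SNHG8, 0.62 for SNHG29, 0.61 for SNHG12, 0.38 for SNHG9 and 0.32 for SNHG32.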

How the results depend on the processing

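With arrays centred on the poly-A spike-ins the small RNA medians were -0.043, -0.25 and -0.028 at 25, 100 and 400 nM in U2-OS and -0.0073, -0.16 and -0.76 in SJSA-1. The SNHG medians were then -0.12, -0.34 and -0.67 in U2-OS, and -0.59 and -0.92 at 100 and 400 nM in SJSA-1. The median of all probe sets at 400 nM in SJSA-1 was -0.88 on that scale, where 41520 of 44994 probe sets were lower and 11 higher. These genes changed sign there: SNORA74A (-0.14), SNORA3B (-0.39), SNORA26 (-0.63), SNORD12B (-0.34), SNORA2A (-0.017), SNORA60 (-0.90), SNORA71A (-0.80), SNORA71C (-0.65), SNORA71D (-0.54), SNORA78 (-0.47), SNHG17 (-0.24), SNHG8 (-0.69), SNHG29 (-0.80) and SNHG11 (-0.75). So did SNORA71A (-0.24) and SNHG11 (-0.14) at 100 nM in SJSA-1, SNORA78 (-0.064) at 100 nM in U2-OS and SNORD12B (-0.021) at 400 nM in U2-OS. Of 2106 values of named genes under all alternatives, 1984 kept direction and side of the threshold, 68 lost and 36 gained a call, and 18 turned round. The cause was not tested.

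A pseudocount of 1 gave small RNA medians of 0.19 and 0.45 at 100 and 400 nM in U2-OS, and 0.16, 0.46 and 0.38 at 25, 100 and 400 nM in SJSA-1. With 64 they were 0.047 and 0.13 in U2-OS and 0.15 and 0.071 in SJSA-1 at 100 and 400 nM. The filter on low values gave 0.17 and 0.36 in U2-OS and 0.57 and 0.32 in SJSA-1, with an SNHG median of -0.12 at 100 nM in U2-OS. Taking 1 probe set per gene gave -0.040 there. Joint quantile normalization gave a small RNA median of 0.20 and an SNHG median of -0.54 at 400 nM in U2-OS, and a small RNA median of 0.37 at 100 nM in SJSA-1, where centring on array medians gave 0.33. With single arrays left out the small RNA median at 100 nM in SJSA-1 ranged over 0.25 to 0.33, and the SNHG median at 25 nM in U2-OS over -0.11 to -0.048. Under alternatives other than the spike-ins, 29 to 50 small RNA probe sets rose at 100 nM in SJSA-1 and 18 to 24 in U2-OS. Among all probe sets 19.5% (pseudocount of 64) to 41.2% (median centring) rose in SJSA-1. In U2-OS 12.4% (pseudocount of 1) to 19.1% (joint quantile normalization) did. No share is given for the fits of single lines. The filter and 1 probe set per gene also test fewer small RNA probe sets, so nothing is read from these ranges.

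Between the DMSO arrays of the lines, 23 small RNA probe sets were higher in SJSA-1 and 27 lower after median centring, 11 and 28 after joint quantile normalization, and 0 were higher with the spike-ins. SNHG probe sets higher in SJSA-1 numbered 9 after median centring, 0 with the spike-ins and 3 with 1 probe set per gene. Lower ones numbered 1 after median centring, 10 with the spike-ins and 3 after joint quantile normalization. Among all probe sets 47.1% were higher and 30.2% lower after median centring, and 33.5% and 37.7% after joint quantile normalization. With the spike-ins 1.98% were higher and 87% lower. Taking 1 probe set per gene, 19.6% of genes were higher and 66.1% lower. These shares moved with the setting too, so nothing is read from the counts. With single arrays left out 2 to 4 small RNA probe sets were higher.

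The main fit did not pair arrays by replicate number. With the replicate block 23 small RNA probe sets rose at 100 nM in U2-OS against 22 without it, where 15.7% and 15.4% of all rose. In untreated SJSA-1 2 were higher with the block against 4 without it, where 22.2% and 23.0% of all were. Signal limits the precision of dim probe sets, and 19 of 64 small RNA probe sets averaged below percentile 30.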
